A study of Mus musculus with 30 samples.

Results

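Collagen genes were taken as every gene whose symbol reads Col, a number, the letter a and a number, and 44 of the 39179 genes in the count tables met this rule. By the family's usual division, 11 of them are fibrillar, 6 are chains of the collagen IV of basement membranes, and 27 belong to other kinds. Their RNA was measured in the ventral prostate of male C57BL/6 mice by sequencing of poly(A) RNA. From weaning, the mice were given a diet of normal fat content made with linseed oil (LO, rich in omega-3 polyunsaturated fat), soybean oil (SO, rich in omega-6 polyunsaturated fat) or pork fat (PF, lard, rich in saturated fat). Each diet was given for 12 or for 32 weeks to 5 mice, which makes 6 groups and 30 mice. Mice at 32 weeks were also the older ones, so age and time on a diet cannot be told apart, and neither can any difference in handling between the times. The tables held between 27590631 and 41301707 counts per mouse. Mice are named by the number that their titles give them within their group, from 1 to 5.

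Collagens are matrix proteins whose chains wind around each other into a helix. Fibrillar collagens carry tension in the stroma, collagen IV forms the sheet on which an epithelium and blood vessels rest, and the others coat fibrils, build finer filaments, anchor the basement membrane or sit in the membranes of cells. In the prostate, fibroblasts and smooth muscle cells surround ducts whose basal and luminal epithelial cells stand on a basement membrane.

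Collagens took between 0.0926% and 0.225% of a mouse's counts. The secreted proteins of the gland took far more, and the ventral prostate secretion genes Sbp, Sbpl and Spink1 summed to between 98068 and 331223 CPM (counts scaled to a common library size). To compare genes, levels were divided by exon length, giving CPM per kilobase (kb), and averaged over the 30 mice. Beaded filament and von Willebrand A-domain collagens held 31.4% of the collagen total on that scale, fibrillar collagens 28.9% and basement membrane collagens 18.3%. Collagens that attach to fibrils with interrupted helices (FACIT) held 11.4%, multiplexins 5.12%, transmembrane collagens 2.92% and short-chain and EMI-domain collagens 1.997%. A few genes made up most of each class.

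Among fibrillar collagens the mean levels in CPM per kb were Col3a1 at 18.6, Col1a2 at 11.6, Col1a1 at 9.34, Col5a2 at 3.17, Col5a1 at 2.44, Col5a3 at 0.909, Col27a1 at 0.568, Col11a2 at 0.172, Col11a1 at 0.111 and Col24a1 at 0.0725. Col3a1, the chain of the collagen III of pliable tissue, was thus the most abundant collagen gene over the 30 mice, though Col6a1 and Col4a1 had higher means in LO and SO at 12 weeks. It was followed in its class by the chains of collagen I, the main load-bearing fibril. In the basement membrane class the mean levels in CPM per kb were Col4a1 at 14.3, Col4a2 at 7.27, Col4a5 at 4.35, Col4a6 at 2.31, Col4a3 at 0.759 and Col4a4 at 0.610. The ubiquitous chains Col4a1 and Col4a2 led this class. In the beaded filament and von Willebrand A-domain group the mean levels in CPM per kb were Col6a1 at 16.6, Col6a3 at 14.7, Col7a1 at 6.08, Col6a5 at 5.99, Col6a2 at 5.401, Col6a4 at 1.76, Col6a6 at 0.205 and Col28a1 at 0.155. Col7a1, which makes the anchoring fibrils beneath epithelia, stood here among the collagen VI chains. The FACIT genes had mean levels in CPM per kb of Col20a1 at 5.403, Col12a1 at 5.17, Col16a1 at 4.25, Col14a1 at 2.72, Col9a2 at 0.847 and Col9a3 at 0.118. Multiplexins, proteoglycan-like collagens of basement membrane zones, had mean levels in CPM per kb of Col18a1 at 4.73 and Col15a1 at 3.57. Transmembrane collagens had mean levels in CPM per kb of Col23a1 at 2.92, Col17a1 at 1.28, Col13a1 at 0.496 and Col25a1 at 0.0396, and the short-chain pair Col8a2 at 2.79 and Col8a1 at 0.391. The remaining 6 genes had too few counts to be tested. The highest count in any mouse was 3 for Col2a1, 58 for Col10a1, 10 for Col22a1, 6 for Col9a1, 5 for Col26a1 and 2 for Col19a1. Of these, Col2a1, Col9a1 and Col10a1 are known from cartilage.

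**Figure D1:**
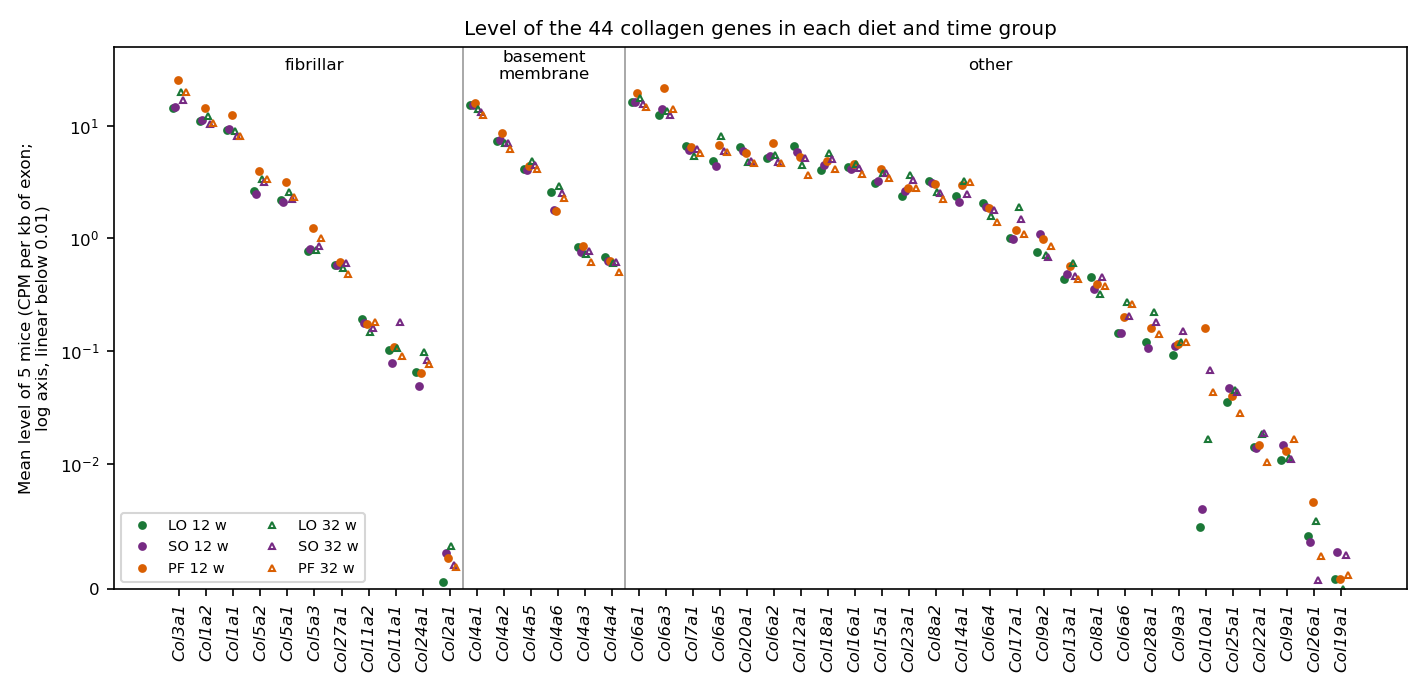
Mean level of each of the 44 collagen genes in the 6 groups, in CPM per kb of exon on a log axis that is linear below 0.01; each point is the mean of 5 mice, filled for 12 weeks and open for 32 weeks. Col3a1, Col6a1, Col6a3 and Col4a1 led in most groups, and Col2a1, Col9a1, Col19a1, Col22a1 and Col26a1 stood near the foot of the axis in all of them.

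Before any comparison, the mice numbered 1 have to be described, since they stood apart from the others in all 6 groups. A fit with a term for number 1, chosen after seeing the data, called 6200 of the 16605 genes tested by edgeR at an adjusted p under 0.05. Among collagens, 21 of 38 were higher in mice numbered 1, against 21.0% of all genes, and 0 were lower, against 16.3% of all genes. The 21 comprised 6 fibrillar, 3 basement membrane and 12 other collagens. Col1a1 stood in CPM at 113, 99.4, 129, 130.5, 74.9 and 93.9 in the mice numbered 1 of LO, SO and PF at 12 weeks and of LO, SO and PF at 32 weeks. In the other 24 mice Col1a1 ranged from 25.5 to 106 CPM. For Col1a1 the mouse numbered 1 was thus the highest of its group in all 6 groups, which was so for 9 collagen genes. The log2 difference of mice numbered 1 from the rest was 1.64 ± 0.20 (SE) for Col9a2, 1.39 ± 0.14 for Col11a2, 1.22 ± 0.09 for Col16a1, 1.14 ± 0.11 for Col13a1 and 1.11 ± 0.16 for Col1a1. It was 0.13 ± 0.22 for Col3a1 and -0.55 ± 0.29 for Col6a6, neither of which passed the test. The difference went with base composition. Over the 38 collagens the Spearman correlation of the log2 difference with the GC content of the longest transcript was 0.80, and over 16428 genes it was 0.62, given as descriptions across genes that are not independent. The median GC content was 55.4% in the collagens tested and 49.7% in all genes with a transcript sequence, and the median log2 difference was 0.34 and -0.04. The ratio of Col1a1 to Col1a2 counts, which needs no scaling between libraries, lay between 0.570 and 0.643 in mice numbered 1 and between 0.284 and 0.450 in the others. These ranges did not overlap. What set these mice apart was not tested. Each group holds 1 such mouse. Counts of collagens called, some ratio tests and the fold changes of several named collagens are also given without them. Class sums, class medians, counts of direction and the other gene lists rest on all mice. So do the fold changes of Col1a1 and Col1a2 between diets.

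**Figure D2:**
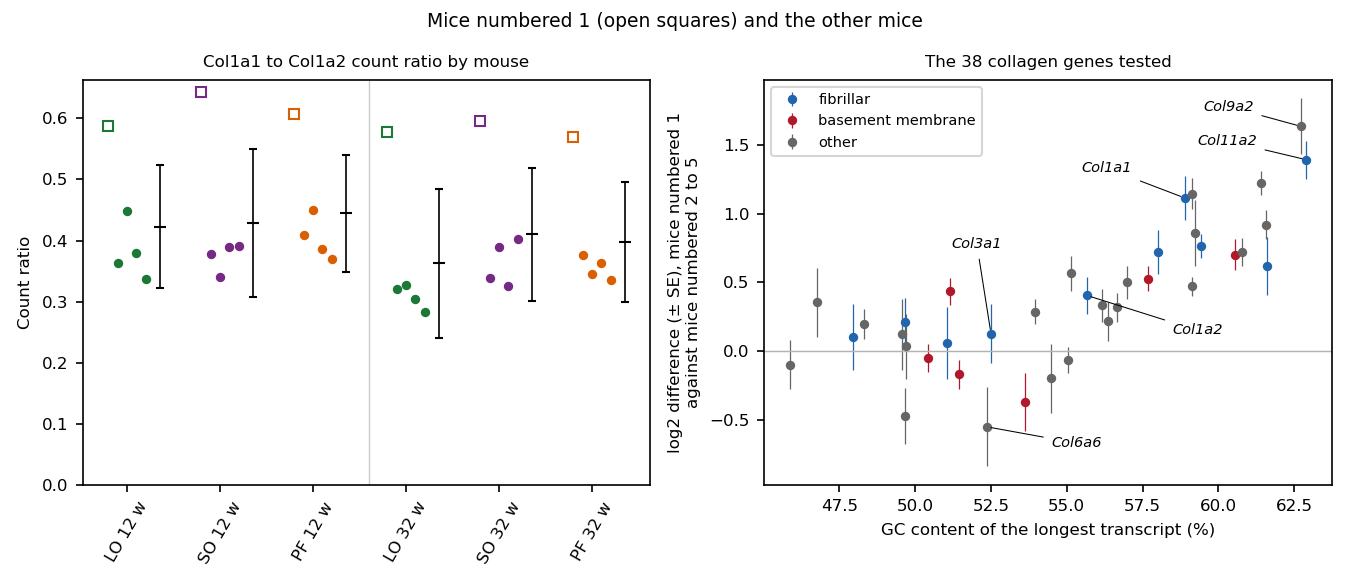
Left, Col1a1 to Col1a2 count ratio of each mouse by group (open squares, mice numbered 1; bars, mean ± SD of 5 mice). Right, log2 difference of mice numbered 1 from mice numbered 2 to 5 (± SE) against the GC content of the longest transcript for the 38 collagen genes tested; the difference is larger in genes with more GC.

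The comparisons of diets at 12 weeks ask whether the kind of fat moved collagen RNA early. PF mice had more RNA of most collagens than SO or LO mice on average, and of the 3 classes the fibrillar had the largest median difference. The spread between PF mice was wide and no collagen passed the test. Fibrillar collagens summed to 592 ± 200.1 CPM (mean ± SD, n = 5) in PF, 402 ± 63.6 in SO and 398 ± 109 in LO. Basement membrane collagens summed to 234 ± 43.4 CPM in PF, 218 ± 25.0 in SO and 226 ± 40.0 in LO, and other collagens to 822 ± 218, 666 ± 88.7 and 666 ± 134 CPM. By mouse, the fibrillar sum in PF was 691, 558, 884, 422 and 406 CPM, with mice 1 and 3 the highest. In the SO group it was 461, 423, 299.7, 385 and 441 CPM, and in LO mice it was 586, 304, 368, 355 and 376 CPM. The ranges of PF and SO overlapped, as did those of PF and LO. For PF against SO, edgeR called 0 of 38 collagens (0% of all genes), 3 collagens had an unadjusted p under 0.05 (7.87% of all genes), and DESeq2 called 0. The median log2 fold change was 0.20 over collagens and -0.02 over all genes, and 30 of 38 collagens were higher in PF. It was 0.45 over fibrillar, 0.09 over basement membrane and 0.14 over other collagens. For PF against LO, edgeR called 0 of 38 collagens (0.0120% of all genes), 3 had an unadjusted p under 0.05 (8.01% of all genes), and DESeq2 called 0. Here 28 of 38 collagens were higher in PF, and the medians were 0.40 over fibrillar, 0.05 over basement membrane and 0.27 over other collagens, against 0.00 over all genes. These 2 comparisons share the PF mice. For LO against SO, edgeR called 0 of 38 collagens (0% of all genes), 0 had an unadjusted p under 0.05 (3.99% of all genes), and DESeq2 called 0, with a median of 0.02 over collagens.

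At 32 weeks, where the same question is put to a longer exposure, the class means lay close together. Fibrillar collagens summed to 474 ± 186 CPM (mean ± SD, n = 5) in LO, 417 ± 109 in SO and 449.7 ± 166 in PF. Basement membrane collagens summed to 220.2 ± 60.7 CPM in LO, 210.0 ± 27.6 in SO and 192 ± 34.4 in PF, and other collagens to 696 ± 169, 651 ± 79.2 and 619 ± 34.8 CPM. Each difference between these means was smaller than the larger of the SDs beside it. For PF against SO, edgeR called 0 of 38 collagens (0% of all genes), 5 had an unadjusted p under 0.05, all lower in PF (12.0% of all genes), and DESeq2 called 0. Those were Col11a1, Col12a1, Col6a4, Col25a1 and Col4a3. The log2 fold change was below 0 for 6 of 6 basement membrane collagens, with a median of -0.16, against -0.02 over all genes. Across fibrillar collagens the median was 0.04 and across the others -0.15. For PF against LO, edgeR called 0 of 38 collagens (0.0120% of all genes), 3 had an unadjusted p under 0.05 (9.42% of all genes), and DESeq2 called 0. Those were the transmembrane collagens Col17a1, Col23a1 and Col25a1, each lower in PF. The medians were -0.14 over fibrillar, -0.22 over basement membrane and -0.22 over other collagens, against -0.01 over all genes. For LO against SO, edgeR called 0 of 38 collagens (0% of all genes), 1 had an unadjusted p under 0.05 (3.60% of all genes), and DESeq2 called 0, with a median of 0.09 over collagens. That gene was Col11a1, and the comparisons at 32 weeks share their PF, SO and LO mice in pairs.

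The comparison of 32 with 12 weeks asks what changed with time and age. Over the mean of the diets, 2 transmembrane collagens rose and 4 collagens fell, all of them from the class of other collagens, and no fibrillar or basement membrane gene passed. With edgeR and its filter on low counts, 6 of 38 collagens passed, against 19.9% of all genes, a share not above that of all genes. The 2 that rose stand beside 11.7% of all genes that rose, and the 4 that fell beside 8.14% that fell. In this comparison 11 collagens had an unadjusted p under 0.05 (33.1% of all genes), and DESeq2 called 7 of the 44 it fitted (13.8% of all genes it fitted). With edgeR and no filter it was 6 of 44 (10.6% of all genes). In these 2 fits the share of collagens was slightly above that of all genes, so its side depended on the genes fitted and the test. Fibrillar collagens had 0 of 10 called by edgeR, 1 with an unadjusted p under 0.05 (Col24a1) and 0 called by DESeq2. Basement membrane collagens had 0 of 6 called by edgeR, 2 with an unadjusted p under 0.05 (Col4a3 and Col4a6) and 0 called by DESeq2. The mice numbered 1 bear on this, since Col4a1 and Col4a3 passed with a term for them, and Col24a1 passed without them. Within LO, 2 of 38 collagens passed (2.70% of all genes) and 8 had an unadjusted p under 0.05 (20.5% of all genes). In SO mice 1 of 38 passed (6.46% of all genes) and 5 had an unadjusted p under 0.05 (19.7% of all genes). In PF mice edgeR called 0 of 38 (0.0301% of all genes), 6 had an unadjusted p under 0.05, all lower at 32 weeks (10.2% of all genes), and DESeq2 called 0. The PF group was the one in which most collagens leaned down, with 32 of 38 lower at 32 weeks and a median log2 fold change of -0.29, against 0.00 over all genes. By class this median was -0.32 for fibrillar, -0.34 for basement membrane and -0.25 for other collagens. In LO the class medians were 0.10, -0.09 and 0.22, and in SO 0.09, 0.02 and 0.02.

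Whether time acted alike in the diets was tested as a difference of differences. For PF and SO, edgeR called 0 of 38 collagens (0% of all genes), 3 had an unadjusted p under 0.05 (9.49% of all genes), and DESeq2 called 0. The time change was lower in PF than in SO for 35 of 38 collagens, with a median difference of -0.37 on the log2 scale, against 0.00 over all genes. For PF and LO, edgeR called 0 of 38 (0% of all genes), 7 had an unadjusted p under 0.05 (7.79% of all genes), DESeq2 called 0, and 32 of 38 were lower with a median of -0.37. For LO and SO, edgeR called 0 of 38 (0% of all genes), 1 had an unadjusted p under 0.05 (3.33% of all genes), DESeq2 called 0, and the median was 0.07. No collagen was therefore shown to change with time in a diet more than in another.

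**Figure D3:**
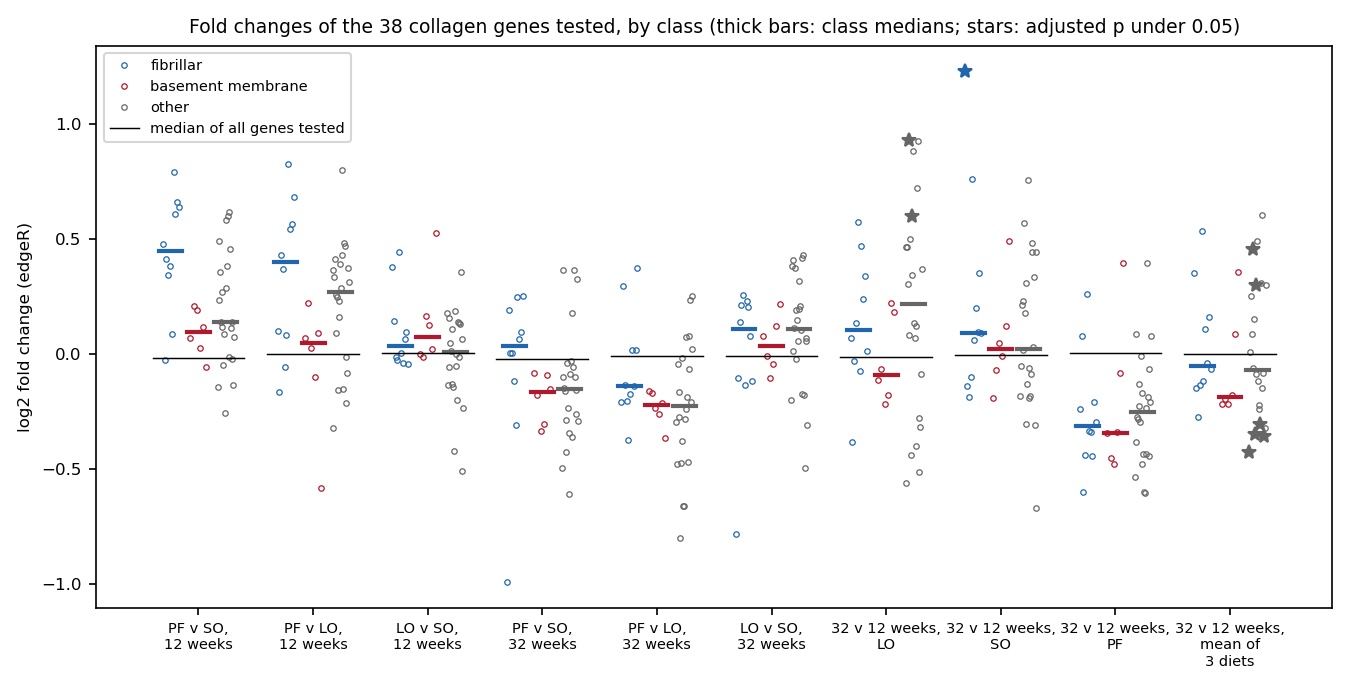
Log2 fold change of the 38 collagen genes tested in 10 comparisons (small circles; stars, adjusted p under 0.05), by class, with class medians as thick bars and the median of all genes tested as a thin black line. At 12 weeks the fibrillar median of PF lay 0.45 above SO and 0.40 above LO, and from 12 to 32 weeks in PF all 3 class medians were below 0.

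Among fibrillar collagens the most abundant, Col3a1 and Col1a2, come before the rest. Col3a1 stood at 235, 253, 437, 154 and 169 CPM in PF mice 1 to 5 at 12 weeks, 141, 166, 113, 137 and 165 in SO and 191, 107, 130.5, 129.7 and 146 in LO. Mouse 3 of PF was the highest of all 30, and 4 of 5 PF mice lay above every SO mouse, while 3 of 5 lay above every LO mouse. At 32 weeks the Col3a1 level was 263, 174, 259, 99.7 and 179 CPM in LO, 124, 167, 272, 137 and 130.5 in SO and 209.9, 332, 117, 113 and 214 in PF, and the ranges of the diets overlapped. The log2 fold change of Col3a1 at 12 weeks was 0.79 ± 0.30 (SE) for PF against SO (edgeR adjusted p = 0.392) and 0.83 ± 0.30 for PF against LO (adjusted p = 0.464). Without the mice numbered 1 these were 0.81 with an adjusted p of 0.525, and 0.99 with an adjusted p of 0.256. Col1a2, a chain of collagen I, stood at 212, 162, 236, 147 and 128 CPM in PF at 12 weeks, 155, 144, 106, 139 and 154 in SO and 193, 113, 124, 127 and 128 in LO. PF mice 1 and 3 were its highest, and the groups overlapped. The Col1a2 level at 32 weeks was 226, 134, 179, 83.9 and 129 CPM in LO, 126, 114, 179.8, 117 and 113 in SO and 165, 169, 97.4, 88.1 and 132 in PF. Its log2 fold change at 12 weeks was 0.34 ± 0.22 for PF against SO (adjusted p = 0.883) and 0.37 ± 0.22 for PF against LO (adjusted p = 0.705). Col1a1, the other chain of collagen I, stood at 129, 66.2, 106, 56.7 and 47.4 CPM in PF at 12 weeks, 99.4, 54.4, 36.1, 54.2 and 60.02 in SO and 113, 41.0, 55.49, 48.0 and 43.1 in LO, with the mouse numbered 1 the highest each time. Its log2 fold change was 0.41 ± 0.39 for PF against SO (adjusted p = 0.9996).

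The 250 bases before the RefSeq start of Col3a1 and of Col1a2 are shown because these are the most abundant fibrillar genes and both were the highest of all 30 mice in PF mouse 3 of 12 weeks. They are from RefSeq on build GRCm38.p6, chr1:45311288-45311537 (plus strand) and chr6:4505368-4505617 (plus strand), written 5′ to 3′ along the gene. RefSeq and GENCODE place some starts apart. The Col1a2 window lies inside the gene as GENCODE gives it, from 554 to 803 bases past its first base. Capitals mark each CCAAT box, each GC box (GGGCGG) and each TATA box (TATAAA), and a box on the other strand stands as its reverse complement.
Col3a1: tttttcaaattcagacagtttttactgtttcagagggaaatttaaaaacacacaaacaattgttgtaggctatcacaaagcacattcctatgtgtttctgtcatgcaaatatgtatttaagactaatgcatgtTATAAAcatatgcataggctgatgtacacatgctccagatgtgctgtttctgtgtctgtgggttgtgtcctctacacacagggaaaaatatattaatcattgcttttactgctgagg
Col1a2: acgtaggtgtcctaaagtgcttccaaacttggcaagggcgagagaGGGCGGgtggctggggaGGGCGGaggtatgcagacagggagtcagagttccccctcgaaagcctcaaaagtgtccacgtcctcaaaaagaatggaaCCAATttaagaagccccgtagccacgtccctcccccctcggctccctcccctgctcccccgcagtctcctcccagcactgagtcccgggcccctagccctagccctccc
The Col3a1 window holds 1 TATAAA and neither other motif, with a GC content of 35.2%, and the Col1a2 window holds 1 CCAAT and 2 GGGCGG, with a GC content of 62.0%. Of 32851 promoters, 33.9% hold CCAAT, 32.7% GGGCGG and 12.4% TATAAA. Of the 35 collagens among the 44 with a promoter in the table, 12 hold CCAAT, 21 GGGCGG and 5 TATAAA. A match is a run of letters and not a site shown to be used.

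Col5a2 and Col5a1 encode collagen V, which sets the width of collagen I fibrils. Col5a2 stood at 45.7, 33.95, 52.4, 27.3 and 29.3 CPM in PF at 12 weeks, 23.7, 25.6, 19.0, 24.9 and 26.2 in SO and 32.6, 19.4, 23.9, 23.1 and 28.3 in LO. All 5 PF mice lay above all 5 SO mice, and 3 of 5 lay above every LO mouse. The log2 fold change of Col5a2 was 0.66 ± 0.25 for PF against SO (edgeR adjusted p = 0.384) and 0.56 ± 0.25 for PF against LO (adjusted p = 0.572), so that neither passed. Without the mice numbered 1 it was 0.58 with an adjusted p of 0.580 for PF against SO. Its 32-week levels were 46.2, 27.5, 40.6, 17.0 and 29.8 CPM in LO, 23.2, 28.4, 45.8, 26.1 and 29.1 in SO and 34.2, 50.5, 23.7, 19.7 and 34.7 in PF, which overlapped. Col5a1 had group means (± SD, n = 5) of 18.6 ± 7.04, 17.8 ± 3.66 and 27.1 ± 10.6 CPM in LO, SO and PF at 12 weeks, and of 21.9 ± 11.4, 19.0 ± 4.53 and 19.9 ± 7.19 CPM at 32 weeks. The rarer Col5a3 had means of 5.26 ± 2.56, 5.43 ± 1.49 and 8.46 ± 1.71 CPM at 12 weeks and 5.31 ± 2.92, 5.78 ± 2.43 and 6.88 ± 2.93 CPM at 32 weeks. Col27a1 ranged from 4.85 to 13.2 CPM, Col11a2 from 0.607 to 2.75 CPM and Col24a1 from 0.174 to 1.07 CPM. For Col27a1 and Col11a2 the mouse numbered 1 was the highest in all 6 groups.

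Col11a1, a minor fibrillar chain best known from cartilage, was the fibrillar gene called with time within a diet, in SO, at a low level and not in every setting. In SO mice it stood at 1.07, 1.754, 0.823, 1.01 and 0.291 CPM at 12 weeks and 2.08, 2.47, 3.08, 2.46 and 1.53 CPM at 32 weeks. All 5 mice at 32 weeks lay above the median of those at 12 weeks and 4 of 5 above the highest of them, SO mouse 2. It rose by a log2 fold change of 1.23 ± 0.34 (SE, n = 5 a group; edgeR adjusted p = 0.0274). Without the mice numbered 1 the value was 1.305 with an adjusted p of 0.0536. In LO mice the level was 1.15, 1.10, 1.76, 1.12 and 1.31 CPM at 12 weeks and 1.57, 1.66, 1.87, 0.921 and 0.706 CPM at 32 weeks. In PF mice the level was 1.502, 0.840, 2.38, 1.27 and 0.925 CPM at 12 weeks and 1.42, 1.41, 0.751, 1.25 and 0.968 CPM at 32 weeks. The 5 SO mice at 32 weeks lay above all 5 PF mice of that time, with a log2 fold change of -0.99 ± 0.33 for PF against SO (adjusted p = 0.267). The time change in PF differed from that in SO by -1.47 ± 0.47 on the log2 scale (adjusted p = 0.255). The call in SO was lost with only the SO groups in the fit, where edgeR called 0 of 38 collagens (6.68% of all genes). It was also lost without any of 7 mice. The adjusted p was 0.0526 without SO mouse 1, 0.0634 without SO mouse 3, 0.0632 without SO mouse 4 and 0.0772 without SO mouse 5 of 12 weeks, and 0.0540 without SO mouse 2, 0.0736 without SO mouse 3 and 0.0802 without SO mouse 4 of 32 weeks. Its promoter, chr3:114030290-114030539 (plus strand) from RefSeq on build GRCm38.p6, is shown as that of a gene called in a diet, with the motifs in capitals as above.
Col11a1: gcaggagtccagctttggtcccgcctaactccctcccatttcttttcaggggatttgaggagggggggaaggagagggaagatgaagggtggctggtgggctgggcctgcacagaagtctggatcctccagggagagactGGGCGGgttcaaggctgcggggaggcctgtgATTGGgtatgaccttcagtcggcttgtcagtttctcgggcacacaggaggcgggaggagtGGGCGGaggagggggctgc
It holds 1 CCAAT, 2 GGGCGG and 0 TATAAA.

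**Figure D4:**
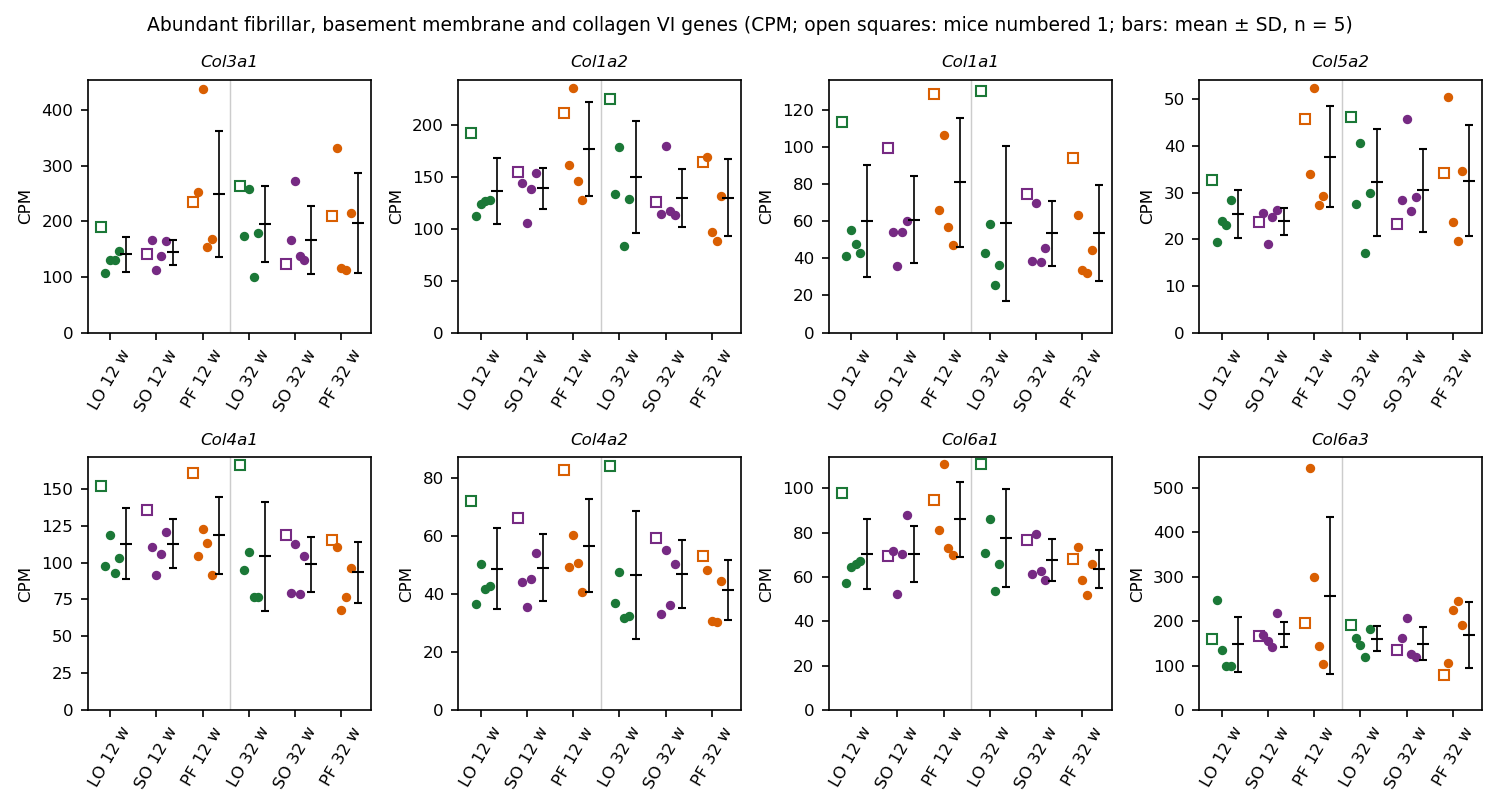
CPM of 8 abundant fibrillar, basement membrane and collagen VI genes in each mouse (open squares, mice numbered 1; bars, mean ± SD of 5 mice). PF at 12 weeks holds the highest Col3a1 (437 CPM in mouse 3) and the highest Col6a3 (546 CPM in mouse 2).

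Ratios of counts within a mouse show the balance of chains without any scaling between libraries. The Col3a1 to Col1a1 ratio was 1.68, 2.603, 2.35, 2.71 and 3.39 in LO mice at 12 weeks and 2.01, 4.06, 4.42, 3.91 and 4.89 at 32 weeks. At both times LO mouse 1 was the lowest. In SO mice the ratio was 1.42, 3.06, 3.13, 2.53 and 2.74 at 12 weeks and 1.65, 4.30, 3.88, 3.61 and 2.87 at 32 weeks, and in PF mice 1.83, 3.83, 4.11, 2.72 and 3.57 and 2.23, 5.22, 3.48, 3.54 and 4.84. In each of the 6 groups the mouse numbered 1 was the lowest. The mean log2 ratio in LO was 0.57 higher at 32 weeks (exact permutation test, p = 0.0873, adjusted p = 0.744 over 27 tests), and 0.65 higher without the mice numbered 1 (exact p = 0.0286, adjusted p = 0.220). Without those mice the Col1a1 to Col1a2 log2 ratio was 0.30 lower at 32 weeks in LO (exact p = 0.0286, adjusted p = 0.220) and 0.20 higher in PF than in LO at 32 weeks (exact p = 0.0286, adjusted p = 0.220). With all mice these differences were -0.25 (exact p = 0.309) and 0.16 (exact p = 0.460). In the basement membrane pair, the Col4a1 to Col4a2 ratio ranged from 1.95 to 2.66 over the 30 mice. Its difference with the smallest p was -0.15 for PF against LO at 12 weeks (exact permutation test, p = 0.0714, adjusted p = 0.744). Of the 27 tests of the 3 ratios, 0 passed at an adjusted p under 0.05 and 0 had an unadjusted p under 0.05. These were 2-sided exact tests of 5 against 5 mice, whose smallest possible p is 0.00794. After adjustment over the 27 tests a single difference at that p could not pass, so the adjusted result cannot show that the ratios were alike.

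Between the diets 0 of 6 basement membrane collagens were called by edgeR or DESeq2 at either time. At 32 weeks 6 of 6 were lower in PF than in SO and than in LO, with medians of -0.16 and -0.22. Of these, Col4a3 against SO had an unadjusted p under 0.05. Col4a1 and Col4a2 encode the chains found in nearly every basement membrane, that of blood vessels included. The Col4a1 level was 152, 97.5, 119, 93.2 and 103 CPM in LO mice at 12 weeks, 136, 110.5, 91.7, 106 and 121 in SO and 161, 105, 123, 113 and 91.6 in PF. At 32 weeks it was 167, 94.8, 107, 76.6 and 76.5 CPM in LO, 118, 79.5, 113, 78.9 and 105 in SO and 115, 111, 67.6, 76.9 and 96.1 in PF. The mouse numbered 1 was the highest in all 6 groups, and the remaining mice of the groups overlapped. Col4a2 followed, at 72.0, 36.6, 50.4, 41.5 and 42.6 CPM in LO, 66.0, 44.1, 35.6, 45.2 and 54.1 in SO and 82.7, 49.3, 60.1, 50.5 and 40.5 in PF at 12 weeks, and at 84.1, 36.8, 47.4, 31.7 and 32.4, 59.4, 33.0, 55.0, 36.0 and 50.5 and 53.0, 48.4, 30.5, 30.2 and 44.6 CPM in these diets at 32 weeks. Over the mean of the diets, the log2 fold change from 12 to 32 weeks was -0.22 ± 0.11 (SE) for Col4a1 (edgeR adjusted p = 0.182) and -0.20 ± 0.15 for Col4a2 (adjusted p = 0.369). With a term for mice numbered 1 the adjusted p of Col4a1 was 0.0332, which is under the threshold, and it was 0.0651 without those mice. The collagen IV genes lie in head-to-head pairs: in GENCODE on GRCm38 the first bases of Col4a1 and Col4a2 are 21 bases apart on opposite strands of chromosome 8, those of Col4a3 and Col4a4 are 72 apart on chromosome 1, and those of Col4a5 and Col4a6 are 1309 apart on chromosome X.

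Col4a3 and Col4a4, chains of a network best known from the kidney and lung, were scarce. Col4a3 had group means (± SD, n = 5) of 8.37 ± 0.625, 7.47 ± 0.740 and 8.52 ± 1.77 CPM in LO, SO and PF at 12 weeks and of 7.19 ± 0.307, 7.72 ± 0.569 and 6.11 ± 1.69 CPM at 32 weeks. In PF its log2 fold change with time was -0.48 ± 0.14 (SE; edgeR adjusted p = 0.264). By mouse this was 10.5, 6.21, 9.72, 7.18 and 9.05 CPM at 12 weeks and 4.497, 7.65, 5.11, 5.09 and 8.21 CPM at 32 weeks, and the groups overlapped. Col4a4 ranged from 4.54 to 9.97 CPM over the 30 mice. Col4a5 and Col4a6 form a network found beneath smooth muscle and some epithelia. Col4a5 had means of 27.8 ± 4.94, 27.4 ± 4.25 and 29.7 ± 1.98 CPM at 12 weeks and 32.4 ± 6.85, 29.8 ± 3.19 and 28.0 ± 7.08 CPM at 32 weeks. The Col4a6 level in LO was 17.3, 8.81, 11.3, 47.8 and 18.2 CPM at 12 weeks and 17.2, 21.4, 34.3, 24.5 and 19.8 CPM at 32 weeks. Mouse 4 of LO at 12 weeks was the highest of all 30 mice for Col4a6, while its Col4a5, at 29.7 CPM, lay within its group. In SO the Col4a6 level was 12.5, 19.7, 14.7, 13.3 and 11.7 CPM at 12 weeks and 15.8, 17.2, 20.1, 24.8 and 23.2 CPM at 32 weeks, and in PF 13.02, 13.3, 10.3, 14.7 and 17.8 and 12.7, 22.4, 22.6, 15.7 and 17.6. Over the mean of the diets the Col4a6 log2 fold change with time was 0.36 ± 0.17 (adjusted p = 0.148). This includes LO mouse 4 of 12 weeks, whose high level makes the rise in LO smaller.

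Among other collagens, the genes that rose with time were Col17a1, the hemidesmosome collagen that ties basal epithelial cells to their basement membrane, and Col23a1, another transmembrane collagen. Col17a1 in LO mice stood at 9.06, 5.46, 3.81, 6.40 and 5.35 CPM at 12 weeks and 17.9, 10.1, 12.3, 6.48 and 10.6 CPM at 32 weeks. All 5 mice at 32 weeks lay above the median of 12 weeks and 4 of 5 above its highest mouse, and mouse 1 of 32 weeks was the highest of all 30. In SO mice it stood at 7.81, 6.58, 3.95, 5.27 and 6.25 CPM at 12 weeks and 9.77, 7.44, 9.06, 10.04 and 8.00 CPM at 32 weeks, again with 4 of 5 above every 12-week mouse. In PF mice it stood at 8.88, 9.12, 5.21, 6.38 and 6.42 CPM at 12 weeks and 7.34, 6.08, 6.87, 5.94 and 6.71 CPM at 32 weeks, and the latter lay within the range of the former. The log2 fold change with time was 0.93 ± 0.22 (SE, n = 5 a group) in LO (edgeR adjusted p = 0.0231), 0.57 ± 0.22 in SO (adjusted p = 0.131) and -0.13 ± 0.22 in PF (adjusted p = 0.883). Over the mean of the diets Col17a1 rose by 0.46 ± 0.13 (adjusted p = 0.0137). Without the mice numbered 1 this was 0.50 with an adjusted p of 0.00485, and the change in LO was 0.92 with an adjusted p of 0.0282. The change in SO without them was 0.65 with an adjusted p of 0.0471, which passes. In LO the adjusted p was 0.0743 without LO mouse 2 of 12 weeks, 0.0779 without LO mouse 3 of 12 weeks, 0.0694 without LO mouse 1 of 32 weeks and 0.0684 without LO mouse 3 of 32 weeks. With only the LO groups in the fit the LO call was lost too, as edgeR called 0 of 38 collagens (0.362% of all genes). The time change in PF differed from that in LO by -1.06 ± 0.31 (adjusted p = 0.452), which did not pass. At 32 weeks all 5 PF mice lay below all 5 SO mice, though Col17a1 was not among the collagens with an unadjusted p under 0.05 there. PF and LO mice overlapped at that time, and the log2 fold change of PF against LO was -0.80 ± 0.22 (adjusted p = 0.228).

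Col23a1 in LO mice stood at 17.0, 14.0, 10.1, 14.6 and 12.7 CPM at 12 weeks and 20.9, 20.5, 23.5, 17.5 and 21.3 CPM at 32 weeks, and the groups did not overlap. In SO mice it stood at 13.9, 18.1, 12.5, 13.6 and 17.6 CPM at 12 weeks and 17.0, 19.7, 18.4, 22.5 and 16.3 CPM at 32 weeks, with 3 of 5 above every 12-week mouse. PF mice had 13.2, 17.0, 15.8, 15.4 and 18.9 CPM at 12 weeks and 14.2, 14.9, 17.6, 14.5 and 18.5 CPM at 32 weeks, which overlapped. Its log2 fold change with time was 0.60 ± 0.13 (SE) in LO (edgeR adjusted p = 0.0153), 0.31 ± 0.13 in SO (adjusted p = 0.163) and -0.01 ± 0.13 in PF (adjusted p = 0.987). Over the mean of the diets Col23a1 rose by 0.30 ± 0.07 (adjusted p = 0.00652), and without the mice numbered 1 the change was 0.33 with an adjusted p of 0.00580. In LO it was 0.70 with an adjusted p of 0.0215. In LO the adjusted p was 0.0538 without LO mouse 3 of 12 weeks and 0.0568 without LO mouse 3 of 32 weeks. The LO call was also lost with only the LO groups in the fit, where edgeR called 0 of 38 collagens (0.362% of all genes). The difference of the time change between PF and LO was -0.61 ± 0.18 (adjusted p = 0.461). The promoters of Col17a1 and Col23a1, from RefSeq on build GRCm38.p6, are shown because each of these genes rose over the mean of the diets, though not in PF. Whether they vary together was not tested. The windows are chr19:47692043-47692292 (minus strand) and chr11:51289670-51289919 (plus strand), with the motifs in capitals as above.
Col17a1: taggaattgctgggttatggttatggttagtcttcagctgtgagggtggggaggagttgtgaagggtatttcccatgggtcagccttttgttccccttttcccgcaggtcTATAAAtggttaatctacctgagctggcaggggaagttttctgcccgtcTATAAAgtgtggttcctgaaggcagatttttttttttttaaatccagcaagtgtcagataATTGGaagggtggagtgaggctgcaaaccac
Col23a1: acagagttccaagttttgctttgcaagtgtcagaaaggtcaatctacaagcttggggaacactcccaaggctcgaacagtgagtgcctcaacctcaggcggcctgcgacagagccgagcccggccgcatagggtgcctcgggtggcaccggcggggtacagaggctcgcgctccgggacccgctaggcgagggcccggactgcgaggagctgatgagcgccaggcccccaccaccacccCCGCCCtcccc
The last 52 bases of the Col17a1 window lie in the gene as GENCODE gives it. That of Col17a1 holds 2 TATAAA and 1 CCAAT, and that of Col23a1 holds 1 GGGCGG and neither other motif. The other transmembrane genes did not pass with time over the mean of the diets: the log2 fold change was 0.01 ± 0.21 for Col13a1 and -0.09 ± 0.14 for Col25a1.

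Some markers of basal epithelium rose with time as well. The list Krt5, Krt14, Krt15, Trp63 and Ngfr had 3 of 5 genes called higher over the mean of the diets, against 11.7% of all genes, and 5 of 5 with a fold change above 0, and none of the 5 was at 0 counts in every mouse. Its summed level in LO mice was 129, 87.9, 68.5, 106 and 74.7 CPM at 12 weeks and 244, 175, 192, 132 and 179.6 CPM at 32 weeks, without overlap. In SO mice it was 94.5, 108, 77.1, 96.0 and 106 CPM and 158, 111, 128, 166 and 154 CPM, and in PF mice 110.0, 141, 88.6, 104 and 125 CPM and 146, 122, 115, 102 and 129 CPM. LO mouse 1 at 32 weeks was the highest of the 30, as it was for Col17a1. Krt15, the most abundant per kb, rose by a log2 fold change of 0.74 ± 0.10 (SE; edgeR adjusted p = 0.000127), Krt5 by 0.45 ± 0.11 (adjusted p = 0.00670) and Trp63 by 0.37 ± 0.07 (adjusted p = 0.00105). Within diets edgeR called 3 of 5 in LO (2.70% of all genes), 2 in SO (6.46%) and 0 in PF, where 0.0301% of all genes were called, 0 of the 5 had an unadjusted p under 0.05 and DESeq2 called 0. For PF against LO at 32 weeks, 5 of 5 were lower in PF with a median of -0.59. There edgeR called 0, 3 had an unadjusted p under 0.05 (9.42% of all genes) and DESeq2 called 0. Trp63, which defines basal cells, stood at 16.7, 12.3, 12.9, 15.7 and 17.0 CPM in LO at 12 weeks and 25.2, 23.9, 26.3, 16.1 and 24.8 CPM at 32 weeks. In bulk tissue, more cells of a kind and more RNA per cell cannot be told apart, and the part of these markers in the rise of Col17a1 and Col23a1 was not tested.

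Col12a1, Col20a1, Col8a2 and Col6a4 fell with time. Col12a1 is the FACIT collagen of tissues under strain, and its level in LO mice was 112, 85.4, 112, 88.9 and 105 CPM at 12 weeks and 72.0, 80.8, 66.2, 63.8 and 58.0 CPM at 32 weeks, without overlap. In SO mice it was 80.5, 87.7, 78.3, 108 and 91.0 CPM at 12 weeks and 85.9, 77.8, 81.4, 76.8 and 70.4 CPM at 32 weeks, and 5 of 5 later mice lay below the earlier median. PF mice had 136, 54.3, 75.5, 69.5 and 68.3 CPM at 12 weeks, where mouse 1 stood far above the rest, and 45.2, 68.3, 55.2, 50.8 and 58.6 CPM at 32 weeks. Over the mean of the diets Col12a1 fell, with a log2 fold change of -0.43 ± 0.09 (SE; edgeR adjusted p = 0.00276), and its log2 fold change without the mice numbered 1 was -0.32 with an adjusted p of 0.00364. Within PF it was -0.54 ± 0.16 (adjusted p = 0.278) with all mice and -0.19 with an adjusted p of 0.483 without those numbered 1, which were the highest of PF at 12 weeks and the lowest at 32 weeks. In LO it was -0.56 ± 0.16 (adjusted p = 0.0541), and -0.53 with an adjusted p of 0.0321 without the mice numbered 1, which passes. At 32 weeks all 5 PF mice lay below all 5 SO mice, with a log2 fold change of -0.50 ± 0.16 (adjusted p = 0.255).

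Col8a2, a short-chain collagen of sheet-like lattices, stood at 20.1, 12.3, 15.1, 13.1 and 12.1 CPM in LO, 14.3, 15.8, 11.2, 14.9 and 13.4 in SO and 19.9, 11.8, 12.5, 11.9 and 12.5 in PF at 12 weeks. At 32 weeks it stood at 14.9, 11.5, 11.6, 10.1 and 10.3 CPM in LO, 15.6, 10.8, 10.4, 8.84 and 10.6 in SO and 12.1, 9.77, 9.09, 9.35 and 10.2 in PF. In each diet 4 of 5 mice at 32 weeks lay below every mouse at 12 weeks, and the mouse numbered 1 was the exception. Col8a2 fell over the mean of the diets, with a log2 fold change of -0.36 ± 0.09 (SE; edgeR adjusted p = 0.00982), and its log2 fold change without the mice numbered 1 was -0.34 with an adjusted p of 0.000938. Col6a4, a chain of collagen VI, stood at 22.3, 12.6, 15.4, 19.2 and 19.2 CPM in LO, 16.4, 12.8, 15.5, 18.2 and 17.7 in SO and 22.4, 12.7, 13.04, 16.6 and 15.0 in PF at 12 weeks. At 32 weeks it stood at 16.5, 12.1, 13.6, 12.3 and 12.7 CPM in LO, 15.4, 14.0, 12.8, 14.7 and 19.0 in SO and 12.8, 12.6, 10.4, 12.0 and 11.3 in PF. All 5 LO, 4 of 5 SO and all 5 PF mice of the later time lay below the earlier median, and the times overlapped in every diet. Col6a4 fell, with a log2 fold change of -0.31 ± 0.09 (SE; edgeR adjusted p = 0.0138), and its log2 fold change without the mice numbered 1 was -0.25 with an adjusted p of 0.0255. Col20a1, a FACIT collagen, stood at 43.3, 35.0, 37.9, 26.6 and 22.5 CPM in LO, 37.5, 28.2, 27.9, 25.5 and 34.2 in SO and 33.95, 36.0, 27.6, 30.4 and 20.3 in PF at 12 weeks. At 32 weeks it stood at 30.7, 22.2, 21.7, 25.4 and 21.9 CPM in LO, 34.8, 19.8, 22.1, 24.6 and 22.7 in SO and 20.1, 16.8, 28.9, 32.5 and 22.3 in PF. All diets overlapped, with 5 of 5 LO, 4 of 5 SO and 4 of 5 PF mice below the earlier median. Col20a1 fell, with a log2 fold change of -0.35 ± 0.11 (SE; edgeR adjusted p = 0.0269), and without the mice numbered 1 it was -0.32 with an adjusted p of 0.0300. Its adjusted p was 0.0504 without LO mouse 1 of 12 weeks and 0.0519 without PF mouse 2 of 32 weeks, so that the call rests on each of them.

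The promoters of Col8a2, Col6a4 and Col20a1, from RefSeq on build GRCm38.p6, are shown because each of these genes fell over the mean of the diets. Col12a1 fell too but had no promoter to show, and whether these genes vary together was not tested. The windows are chr4:126286544-126286793 (plus strand), chr9:106096692-106096941 (minus strand) and chr2:180986285-180986534 (plus strand), with the motifs in capitals as above.
Col8a2: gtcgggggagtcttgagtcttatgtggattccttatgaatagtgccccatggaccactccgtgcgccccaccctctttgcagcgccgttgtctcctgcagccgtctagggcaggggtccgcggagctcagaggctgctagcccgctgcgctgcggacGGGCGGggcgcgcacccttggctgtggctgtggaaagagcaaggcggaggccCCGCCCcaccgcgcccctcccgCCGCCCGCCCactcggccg
Col6a4: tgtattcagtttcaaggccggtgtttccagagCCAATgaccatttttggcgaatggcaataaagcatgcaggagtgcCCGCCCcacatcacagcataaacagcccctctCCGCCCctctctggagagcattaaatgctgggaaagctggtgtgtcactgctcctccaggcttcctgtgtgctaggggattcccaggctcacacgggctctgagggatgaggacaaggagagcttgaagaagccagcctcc
Col20a1: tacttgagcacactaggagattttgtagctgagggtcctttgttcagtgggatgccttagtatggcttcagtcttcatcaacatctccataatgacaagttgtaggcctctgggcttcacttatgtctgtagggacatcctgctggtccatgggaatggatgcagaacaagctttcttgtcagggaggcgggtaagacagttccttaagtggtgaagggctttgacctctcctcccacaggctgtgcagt
By GENCODE the last 92 bases of the Col6a4 window and the last 1 of that of Col8a2 lie in the gene. Col8a2 holds 4 GGGCGG, Col6a4 holds 2 GGGCGG and 1 CCAAT, and none of the 3 motifs is in the window of Col20a1.

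**Figure D5:**
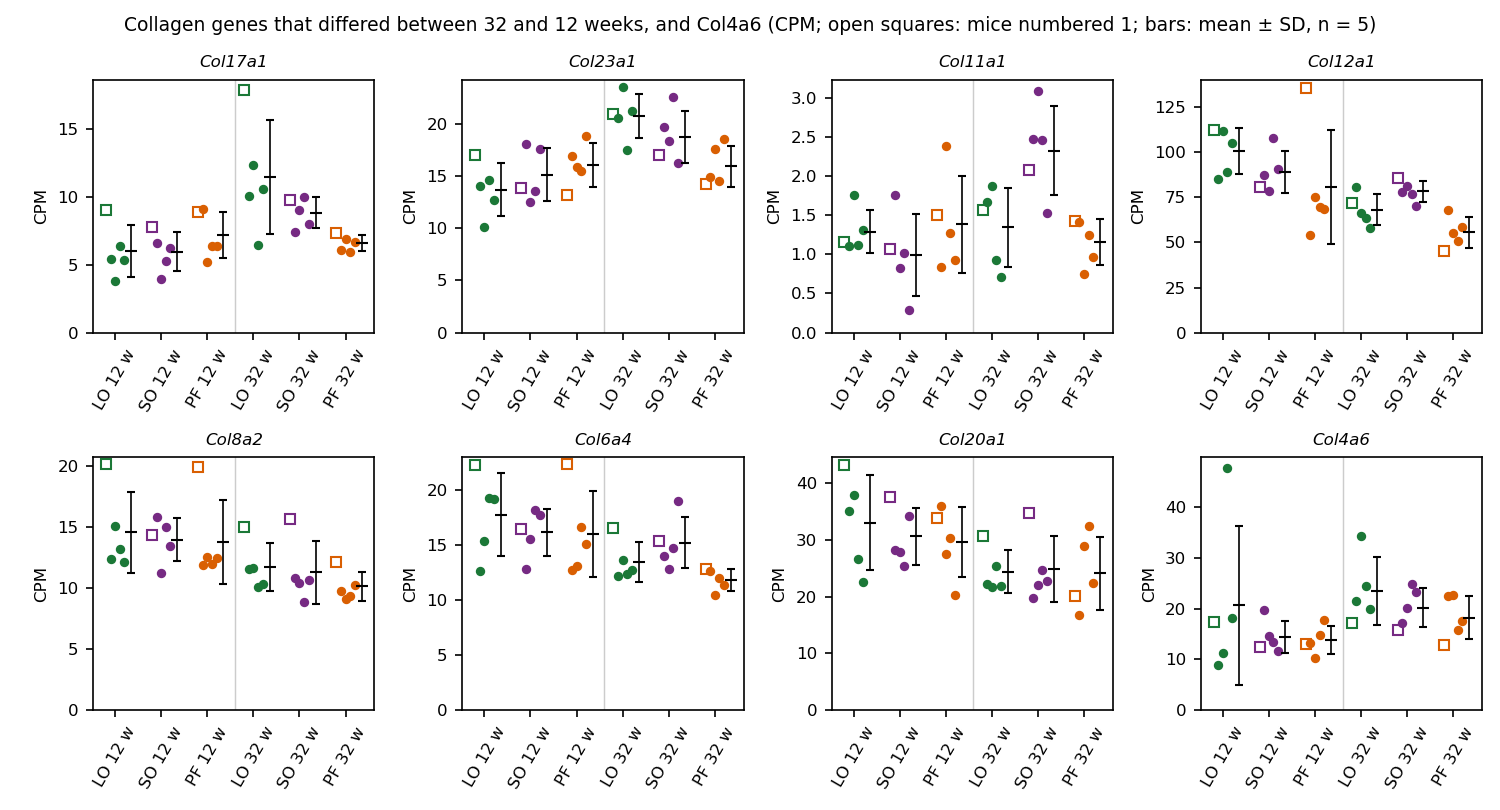
CPM by mouse of the 7 collagen genes called between 32 and 12 weeks in any comparison, and of Col4a6 (open squares, mice numbered 1; bars, mean ± SD of 5 mice). Col23a1 and Col12a1 in LO did not overlap between the times; Col4a6 stood at 47.8 CPM in LO mouse 4 of 12 weeks.

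Collagen VI makes beaded filaments near cells, from Col6a1, Col6a2 and a longer partner chain. Col6a1 stood at 98.1, 57.3, 64.5, 65.7 and 67.2 CPM in LO, 69.7, 71.8, 52.5, 70.5 and 88.1 in SO and 94.95, 81.1, 111, 73.0 and 70.0 in PF at 12 weeks. At 32 weeks it stood at 111, 70.6, 86.0, 53.6 and 65.8 CPM in LO, 76.6, 61.3, 79.3, 62.6 and 58.54 in SO and 68.0, 73.6, 58.8, 51.9 and 65.8 in PF. In PF 4 of 5 later mice lay below every earlier one, with a log2 fold change of -0.43 ± 0.17 (SE; edgeR adjusted p = 0.385), and Col6a2 gave -0.60 ± 0.24 (adjusted p = 0.391). Col6a2 had means (± SD, n = 5) of 43.3 ± 13.1, 44.9 ± 9.20 and 58.4 ± 16.8 CPM in LO, SO and PF at 12 weeks and 45.4 ± 19.9, 39.3 ± 8.45 and 38.5 ± 6.99 CPM at 32 weeks. Col6a3, the usual partner, did not follow them mouse by mouse. It stood at 160.3, 248, 135, 97.9 and 97.8 CPM in LO, 167, 169, 155, 141 and 218 in SO and 195, 546, 299, 144 and 103 in PF at 12 weeks, and at 192, 163, 147, 119.5 and 183, 134, 162, 208, 126 and 118 and 77.8, 105, 226, 247 and 192 CPM at 32 weeks. PF mouse 2 of 12 weeks had the highest Col6a3 of all 30 mice, while its Col6a1, at 81.1 CPM, lay within its group. The log2 fold change of Col6a3 was 0.80 ± 0.34 for PF against LO at 12 weeks (adjusted p = 0.563). Col6a5 stood at 49.1, 68.1, 124, 38.8 and 40.4 CPM in PF at 12 weeks and 70.4, 73.6, 116, 37.5 and 80.5 CPM in LO at 32 weeks, in both with mouse 3 the highest. Its log2 fold change with time in LO was 0.72 ± 0.30 (adjusted p = 0.161). The scarce Col6a6 ranged from 0.442 to 4.98 CPM and its fold change over the mean of the diets was 0.60 ± 0.23 (adjusted p = 0.0654, and 0.0463 with DESeq2).

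The other members are given by their range. Col7a1 ran from 38.3 to 115 CPM with the mouse numbered 1 highest in all 6 groups, and its log2 fold change over the mean of the diets was -0.15 ± 0.17 (SE; edgeR adjusted p = 0.592). Col18a1, the source of endostatin, ran from 20.2 to 74.3 CPM, and Col15a1 from 13.4 to 37.1 CPM. The FACIT gene Col16a1 ran from 16.8 to 61.9 CPM, with every mouse numbered 1 above every other mouse. Col14a1, another FACIT gene, ran from 11.1 to 49.3 CPM. None of Col7a1, Col15a1, Col18a1, Col14a1 and Col16a1 passed in any of the 13 edgeR comparisons. The scarce Col9a2, Col9a3, Col13a1, Col8a1, Col25a1 and Col28a1 had highest levels of 6.47, 1.04, 5.18, 6.68, 0.756 and 1.93 CPM, and none of them passed either.

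A few genes that make and finish collagen fell with time. Of 29 tested genes of collagen synthesis and processing, 5 fell and 0 rose over the mean of the diets, against 8.14% of all genes that fell and 11.7% that rose. Their median log2 fold change was -0.07, against 0.00 over all genes. Within diets it was 0.10 in LO, where 18 of 29 were higher at 32 weeks, -0.09 in SO, where 16 were lower, and -0.20 in PF, where 24 were lower. P4hb, the subunit shared by prolyl hydroxylase and disulfide isomerase and the most abundant of them per kb, fell by 0.23 on the log2 scale (edgeR adjusted p = 0.00203). Mia3, which loads procollagen for export, fell by 0.19 (adjusted p = 0.00281), and the lysyl hydroxylase Plod3 fell by 0.26 (adjusted p = 0.0270). At 12 weeks 23 of 29 were higher in PF than in SO and 24 of 29 higher than in LO, with medians of 0.12 and 0.15. In both of these edgeR called 0 and DESeq2 called 0. Against SO 2 had an unadjusted p under 0.05 (7.87% of all genes), and against LO 4 did (8.01%). Beside the next lists, over the mean of the diets, stand again the 8.14% of all genes that fell and the 11.7% that rose. Of 14 small proteoglycans and glycoproteins of fibrils, 2 rose and 1 fell over the mean of the diets: Lum rose by 0.86 (adjusted p = 0.0189), Dcn rose by 0.38 (adjusted p = 0.0129) and Fmod fell by 0.33 (adjusted p = 0.00229). Among 9 collagen receptors, Lair1, an inhibitory receptor of leukocytes, rose by 0.80 (adjusted p = 0.000987) and the integrin chain Itga1 fell by 0.35 (adjusted p = 0.0297). Of 15 partners of collagen IV in the basement membrane, edgeR called 0 over the mean of the diets. Here 2 had an unadjusted p under 0.05 (33.1% of all genes) and DESeq2 called 1 (13.8% of all genes it fitted). At 32 weeks 13 of 15 were lower in PF than in LO (median -0.34) and 11 of 15 lower than in SO (median -0.18). For these edgeR called 0, and 4 and 2 had an unadjusted p under 0.05 (9.42% and 12.0% of all genes). DESeq2 called 1 in each (0.254% and 0.277% of all genes it fitted). Of 16 genes of TGF-beta signalling to collagen, 3 fell and 0 rose over the mean of the diets, beside 19.9% of all genes called either way. Ccn2, a matrix growth factor, fell by 0.64 (edgeR adjusted p = 0.0181), Tgfb3 by 0.38 (adjusted p = 0.000902) and Smad3 by 0.22 (adjusted p = 0.00349).

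Markers of other cells also differed with time, beside the collagens that fell and rose. Of all genes, 11.7% were called higher over the mean of the diets and 8.14% lower, and the counts of markers stand beside these shares. Of 8 smooth muscle markers 3 fell, and the fold change of all 8 was below 0. Their summed level was 3827, 2594, 3135, 3105 and 3155 CPM in LO, 3094, 3012, 2418, 3333 and 3179 in SO and 3591, 2171, 2581, 2689 and 2807 in PF at 12 weeks, and 3225, 2437, 2681, 2850.0 and 2068 CPM in LO, 3570.0, 2275, 2539, 2376 and 2553 in SO and 2932, 2297, 2395, 1948 and 2223 in PF at 32 weeks. Acta2, the most abundant of them, fell by 0.24 on the log2 scale (edgeR adjusted p = 0.0132). Fibroblast markers had 3 of 10 called higher (C7, Lum and Dcn) and 0 lower, with Gsn the most abundant. The fibroblast sum was 2063, 989, 1332, 1286 and 1696 CPM in LO, 1213, 1466, 1125, 1672 and 1899 in SO and 2014, 1638, 1490.0, 1697 and 1499 in PF at 12 weeks, and 2374, 1811, 2641, 1321 and 1810.0 CPM in LO, 1448, 1449, 1867, 1535 and 1153 in SO and 1927, 1888, 1378, 1427 and 1934 in PF at 32 weeks. Endothelial markers had 4 of 8 called higher, with Pecam1 the most abundant. The endothelial sum was 72.3, 48.5, 67.6, 58.3 and 82.6 CPM in LO, 54.52, 59.7, 58.1, 56.3 and 67.4 in SO and 73.5, 81.6, 94.2, 63.3 and 70.3 in PF at 12 weeks, and 107, 66.5, 112, 65.5 and 82.9 CPM in LO, 59.8, 68.8, 90.2, 86.5 and 78.5 in SO and 66.5, 115, 73.9, 62.5 and 84.4 in PF at 32 weeks. Leukocyte markers had 7 of 8 called higher, with Cd68 the most abundant. The leukocyte sum was 71.4, 43.4, 57.9, 85.3 and 79.4 CPM in LO, 39.6, 49.97, 45.9, 51.4 and 59.6 in SO and 114, 111, 113, 76.4 and 58.9 in PF at 12 weeks, and 121, 114, 185, 56.6 and 128 CPM in LO, 68.7, 117, 128, 189.8 and 105 in SO and 81.2, 148, 80.2, 72.0 and 110.2 in PF at 32 weeks. Within diets edgeR called 7 of 8 leukocyte markers in SO (6.46% of all genes), 0 in LO (2.70%) and 0 in PF (0.0301%). In LO and PF 5 and 0 had an unadjusted p under 0.05 (20.5% and 10.2% of all genes). DESeq2 called 3 and 0 there (4.10% and 0.194% of all genes it fitted). At 12 weeks 8 of 8 were higher in PF than in SO; edgeR called 0, 7 had an unadjusted p under 0.05 (7.87% of all genes) and DESeq2 called 1 (0.434% of all genes it fitted). Against LO, 8 of 8 were higher in PF; edgeR called 0, 2 had an unadjusted p under 0.05 (8.01% of all genes) and DESeq2 called 0. At 12 weeks 10 of 10 fibroblast markers were higher in PF than in SO and than in LO. Endothelial markers were higher in 8 of 8 against SO and 7 of 8 against LO. Against SO these lists had 0 called by edgeR, 1 and 2 at an unadjusted p under 0.05 (7.87% of all genes) and 0 by DESeq2. Against LO edgeR called 0, 0 had an unadjusted p under 0.05 and DESeq2 called 0. Smooth muscle markers leaned the other way at 12 weeks. In PF 7 of 8 were lower than in SO (median -0.07) and 8 of 8 lower than in LO (median -0.19). For both, edgeR called 0, 0 had an unadjusted p under 0.05 and DESeq2 called 0. Of the 3 secretion genes of the ventral prostate 2 fell, with Sbp the most abundant, and the sum of the 3 had means (± SD) of 240880.0 ± 54177, 273956 ± 38174, 255826 ± 56266, 142649 ± 37290.0, 151488 ± 12605 and 235925 ± 71816 CPM in LO, SO and PF at 12 weeks and then at 32 weeks. None of these markers was at 0 in every mouse. At 32 weeks all 3 secretion genes were higher in PF than in LO and than in SO. For these edgeR called 0 in either (0.0120% of all genes against LO and 0% against SO). In both, 3 had an unadjusted p under 0.05 (9.42% of all genes against LO and 12.0% against SO). DESeq2 called 2 against LO (0.254% of all genes it fitted) and 1 against SO (0.277%). The part of all these markers in the changes of collagen RNA was not tested.

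Skeletal muscle markers had 4 of 5 called higher at 32 weeks over the mean of the diets, against 11.7% of all genes. Acta1 was the most abundant, and a few mice held the highest sums. The skeletal muscle sum was 153, 78.0, 73.9, 112 and 58.8 CPM in LO, 108, 74.2, 83.1, 76.0 and 83.5 in SO and 94.5, 87.2, 68.7, 64.7 and 122 in PF at 12 weeks, and 547, 60.9, 77.9, 75.8 and 59.99 CPM in LO, 154, 44.4, 272, 279 and 47.8 in SO and 142, 46.8, 469.9, 41.2 and 44.04 in PF at 32 weeks. LO mouse 1, PF mouse 3 and SO mice 3 and 4 of 32 weeks were the highest. Col3a1 was 263 CPM in that LO mouse, 117 in PF mouse 3, 272 in SO mouse 3 and 137 in SO mouse 4, and a link of muscle markers to collagens was not tested. Of the other lists, pericyte markers had 1 of 5 called higher (Rgs5, the most abundant), against 11.7% of all genes. Luminal epithelium had 0 of 8 called by edgeR, 2 at an unadjusted p under 0.05 (33.1% of all genes) and 0 by DESeq2, with Pbsn the most abundant. Over the mean of the diets, adipocyte markers had 0 of 7 called by edgeR, 0 at an unadjusted p under 0.05 and 0 by DESeq2. Within diets their median log2 fold change with time was -0.66 in LO, -0.80 in SO and 0.97 in PF. There edgeR and DESeq2 called 0 in each. At 32 weeks 7 of 7 were higher in PF than in LO (median 1.19) and 6 of 7 higher than in SO (median 1.81). Of these 0 and 3 had an unadjusted p under 0.05 (9.42% and 12.0% of all genes), and edgeR and DESeq2 called 0. Their sum ranged from 38.2 to 971 CPM, with Cfd the most abundant. The adipocyte sum was 253, 128, 648, 38.2 and 683 CPM in LO, 149, 82.3, 228, 184 and 812 in SO and 176, 340.5, 156, 342 and 404 in PF at 12 weeks, and 218, 90.7, 342, 447 and 143 CPM in LO, 75.6, 63.8, 286, 58.8 and 395 in SO and 666, 971, 89.8, 310.0 and 963 in PF at 32 weeks. Of the 3 mesothelial markers 1 could be tested, and their sum stayed at or under 3.28 CPM. Over the mean of the diets edgeR called 0 of them, 0 had an unadjusted p under 0.05 and DESeq2 called 0. All 6 seminal vesicle genes were under 10 counts in every mouse and Svs6 was at 0 in all of them. The luminal and secretory genes of the labelled tissue were present in every mouse.

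Without the mice numbered 1, edgeR called 3 collagens with time in LO (2.78% of all genes), 2 in SO (8.88%) and 8 over the mean of the diets (28.8%). With a term for them it called 3 (6.37% of all genes), 3 (9.80%) and 8 (29.2%). The shares of all genes called were larger in these fits as well. The added genes over the mean of the diets were Col24a1 and Col6a6 without those mice, and Col4a1 and Col4a3 with the term. In SO the genes called without them were Col17a1 and Col8a2. In every diet comparison within a time, and for PF with time, 0 were called by edgeR either way, with the counts at an unadjusted p under 0.05 and by DESeq2 over all mice as given above.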

How the data were processed

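Ventral prostate RNA of 30 mice (RNA integrity numbers above 8 per the labels) was sequenced after TruSeq Stranded mRNA library preparation. Per the labels the authors used TopHat2, HTSeq and DESeq2 with build GRCm38.p6, and the deposited tables give a raw count per gene and mouse; the strand setting and annotation release are not given in the sources used here. Counts were used as deposited. Gene identifiers were given symbols, positions and exon lengths from GENCODE M21 (GRCm38), which matched 37693 of 39179. Mice were grouped by diet and time from their titles and labels. With edgeR 4.0.16 in R 4.3.3, genes were filtered with filterByExpr by group (16605 kept), scaled by TMM and fitted by quasi-likelihood over the 6 groups in a single model, with 13 2-sided contrasts: 6 between diets within a time, 3 between times within a diet, their mean, and 3 differences between diets. P-values were adjusted by Benjamini-Hochberg over all genes tested, and called means an adjusted p under 0.05. CPM are TMM-scaled. Ratios of counts were compared by exact permutation tests. Python 3.11.15 made the tables.

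Alternatives were DESeq2 1.42.0 (26749 genes fitted), its size factors, no filter, a filter at 10 counts, a fit of the compared groups alone, a block by mouse number, a threshold of 0.1, and leaving out each mouse; leaving out the mice numbered 1 and a term for them were added after seeing the data. The steps were tested on simulated data. Named genes were, in each class, up to 6 members highest in CPM per kb over all mice, every member called in a comparison, and from each other list the most abundant member and up to 4 called members with the largest fold change; other collagens were named after their values were seen. Members and lists were chosen with earlier results of these data known. Depth ran from 27590631 to 41301707 counts per mouse, at which 6 collagens were too scarce to test, and intervals from counts alone would not cover the spread between mice.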

Additional observations from a re-analysis of the deposited data

Results flagged for a closer look

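For 24 named collagens and 3 ratios, each group of 5 mice was searched for a mouse far from the other 4, as a gap to its nearest neighbour of more than 0.71 of the group's range. Chance gives this in about 1 in 20 groups, and it was found in 16 of 162. In 12 of the 16 the mouse was numbered 1. These were the ratio of Col1a1 to Col1a2 counts in SO at 12 weeks (0.643), LO at 32 weeks (0.578), SO at 32 weeks (0.596) and PF at 32 weeks (0.570). In LO mouse 1 of 12 weeks they were Col1a2 at 193 CPM, Col1a1 at 113 CPM, Col6a1 at 98.1 CPM and Col6a2 at 66.6 CPM. In PF mouse 1 of 12 weeks they were Col12a1 at 136 CPM and Col8a2 at 19.9 CPM. Col7a1 stood at 104 CPM in LO mouse 1 of 32 weeks, and Col4a4 at 9.12 CPM in SO mouse 1 of 32 weeks. The other 4 were Col4a6 at 47.8 CPM in LO mouse 4 of 12 weeks, and Col3a1 at 272 CPM, Col1a2 at 179.8 CPM and Col5a2 at 45.8 CPM in SO mouse 3 of 32 weeks. Every one of these values was the highest of its group.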

How the results depend on the processing

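The values counted here cover the 56 pairs of a collagen and a comparison with an unadjusted p under 0.05, and the differences of medians of the 3 ratios. Under other settings 420 kept their direction and their side of the threshold, 8 lost a call, 10 gained a call and 0 reversed. Only 9 of the 56 pairs were called at first, so most that kept their side were uncalled throughout. A missing adjusted p was counted as keeping its side. Of the fits that leave out a mouse, only the lowest and highest fold change of each called pair were counted. The calls lost without single mice, given above for Col17a1, Col23a1, Col11a1 and Col20a1, are thus not all among the 8. Scaling by DESeq2 size factors, no filter and the filter at 10 counts left the counts of collagens called at 2 for 32 against 12 weeks in LO, 1 in SO and 6 over the mean of the diets. These fits held 38, 44 and 34 collagens in this order. The shares of all genes called were 2.64%, 1.17% and 2.29% in LO and 6.53%, 3.13% and 5.25% in SO. Over the mean of the diets they were 19.8%, 10.6% and 17.7%. With only the groups compared in the fit, 0 were called by edgeR in LO (0.362% of all genes) and 0 in SO (6.68%); DESeq2 on all mice called 3 (4.10% of all genes it fitted) and 1 (5.55%), and 8 and 5 had an unadjusted p under 0.05 in the fit of all mice. Without the mice numbered 1 the count in SO was 2 (8.88% of all genes), with a term for them 3 (9.80%). At an adjusted p under 0.1 the count over the mean of the diets was 10, beside 27.5% of all genes. Leaving out each mouse in turn gave between 0 and 4 collagens in LO, between 0 and 1 in SO and between 5 and 8 over the mean of the diets. The shares of all genes in those fits are not given here, so these counts are not read as a result about collagens. In the other comparisons edgeR called 0 collagens under each of these settings. Of the 27 ratio tests 0 passed in any setting. With 4 mice against 4, an exact permutation p cannot be under 0.0286. After adjustment over 27 tests, a single ratio difference could not pass in any of these settings. The count of 0 therefore does not show that the ratios were alike or that their results were stable.

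Apart from the mice numbered 1, mice with the same number were on average little alike across groups, and the number was not used to pair them. Over all genes, mice with the same number in different groups correlated at 0.122 on average and those with different numbers at -0.0290, 39 of 75 pairs with the same number were above 0.1, and 10 of 30 mice correlated best with their own number. Mice numbered 1 correlated at 0.426 with each other on average, and those numbered 2, 3, 4 and 5 at 0.0671, 0.0924, 0.00184 and 0.024. Single pairs spread widely around these averages, from -0.403 to 0.509 for number 4 and from -0.166 to 0.356 for number 3. A tie between some of these mice was not tested. With the number as a block, edgeR called 2 collagens with time in LO (4.02% of all genes), 3 in SO (7.37%; Col11a1, Col17a1 and Col8a2) and 7 over the mean of the diets (4486 of 16605 genes). In each of these the share of all genes was also above that without a block. With 5 pairs an exact sign permutation test cannot give a p under 0.0625.

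With 5 mice a group, a small difference within a wide spread can be missed. In genes such as Col11a1, with under 4 CPM in every mouse, counting error adds to that spread. Protein, the place of a collagen in the tissue and the kind of cell that makes it were not measured.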
